A study of Mus musculus with 8 samples.

Results

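Ly6C-low and Ly6C-inter cells of the non-stressed (NS) conjunctiva were compared by their NanoString counts. These are 2 of the 8 samples of the series and were taken by their titles, N-MHCII-CD64+Ly6C-low and N-MHCII-CD64+Ly6C-inter. Both came from the same kind of animal, 10-week-old female C57BL/6J mice kept without desiccating stress, and each was 1 pool of cells, for which the conjunctivae of both eyes of 20 mice were combined. The sort took live CD45+CD11b+ cells, removed cells that bound antibodies to NK cells, T cells, B cells and Ly6G, and then kept MHCII-CD64+ cells with an intermediate or a low to negative Ly6C stain, so the 2 pools differ by label only in the Ly6C gate. The other samples were NS MHCII+ cells, NS monocytes (MHCII-CD64+Ly6C-high) and the same 4 populations after 5 days of desiccating stress (DS5), where tear secretion was blocked with scopolamine and a fan blew dry air into the cage.

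Ly6C is a surface protein that is abundant on classical monocytes and is lost as these cells become tissue macrophages or patrolling cells. CD64 is a high-affinity receptor for IgG that macrophages carry. Resident macrophages are known for F4/80 (encoded by Adgre1), for the complement protein C1q, for apolipoprotein E and for chemokines that draw in further monocytes.

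The nCounter panel counts 1 barcode per bound transcript for 754 genes, 8 negative control probes without a target and 6 positive control probes. The total over the genes was 5799 counts in the Ly6C-low pool and 5948 in the Ly6C-inter pool, and those of the other 6 pools ran from 2728 to 39677. A gene was kept if its raw count was above a background limit, the negative control mean + 2 SD of its pool, in at least 1 of the 2 pools. That limit was 15.9 counts in Ly6C-low and 11.2 in Ly6C-inter cells, so that the lowest counts kept were 16 and 12 and the highest left out were 15 and 11. Of the 754 genes 129 were kept, and they held 70.1% of the Ly6C-low and 69.5% of the Ly6C-inter total. There was 1 pool per population and thus no replicate, so no test between the populations could be made. Each log2 ratio given here is Ly6C-low over Ly6C-inter after scaling both to equal totals, which moves the raw log2 ratio by only 0.04. The interval beside it is the exact (Clopper-Pearson) 95% interval of a ratio of 2 counts. It covers counting error only and says nothing on the variation between mice or sorts. The smallest value of the table is 1, which may stand for a smaller count.

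Transcripts of the gate could be checked only in part. Itgam (CD11b) had 31 counts in Ly6C-low and 21 in Ly6C-inter cells, and Ptprc (CD45) had 44 and 19. Ly6c1 had 7 and 8 counts and Fcgr1 (CD64) had 6 and 9, all below the limit of their pool, so the transcripts neither show nor contradict the Ly6C gates and the CD64 gate. H2-Aa, of the MHC class II proteins, had 14 and 16 counts against 3419 in NS MHCII+ cells. Of 18 tissue macrophage genes measured, 11 were kept, among them Csf1r (18 and 34 counts), Mrc1 (25 and 43), Cd163 (22 and 35) and Cd68 (15 and 19).

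At least 2-fold higher in Ly6C-low than in Ly6C-inter cells were 25 of the 129 genes (19.4%), and 27 (20.9%) were at least 2-fold lower. The higher genes were led by Siglecf, Rgs1, Nr4a2, Ccr3 and Tgm2, and the lower ones by Ctsl, Pros1, Ccl8, Ccl7 and S100a9. The interval lay above 0 for 29 genes (22.5%) and below 0 for 31 (24%). It did so for 23 of the 25 higher and for 24 of the 27 lower genes. Above the limit in both pools were 77 genes, of which 11 were at least 2-fold higher and 12 lower. The others were above it in 1 pool only, 19 in Ly6C-low and 33 in Ly6C-inter cells, and such a gene is kept through the pool in which it is high. The limit was lower in Ly6C-inter cells, and 10 genes, Ctsl and Pros1 among them, were kept only for that reason. Just inside the 2-fold threshold were Man2b1 (1.04) and Klf4 (-1.09), and just outside it Dnajb6 (0.98) and Jun (-1.0). The share of higher genes among all past the threshold was 48.1%, and 61.8% (34 higher and 21 lower) with scaling to 20 reference genes. Only Ppia, Rpl19 and Oaz1 of these reference genes were kept, and they differed among themselves, with 19 and 44, 36 and 41, and 21 and 15 counts in Ly6C-low and Ly6C-inter cells.

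**Figure D1:**
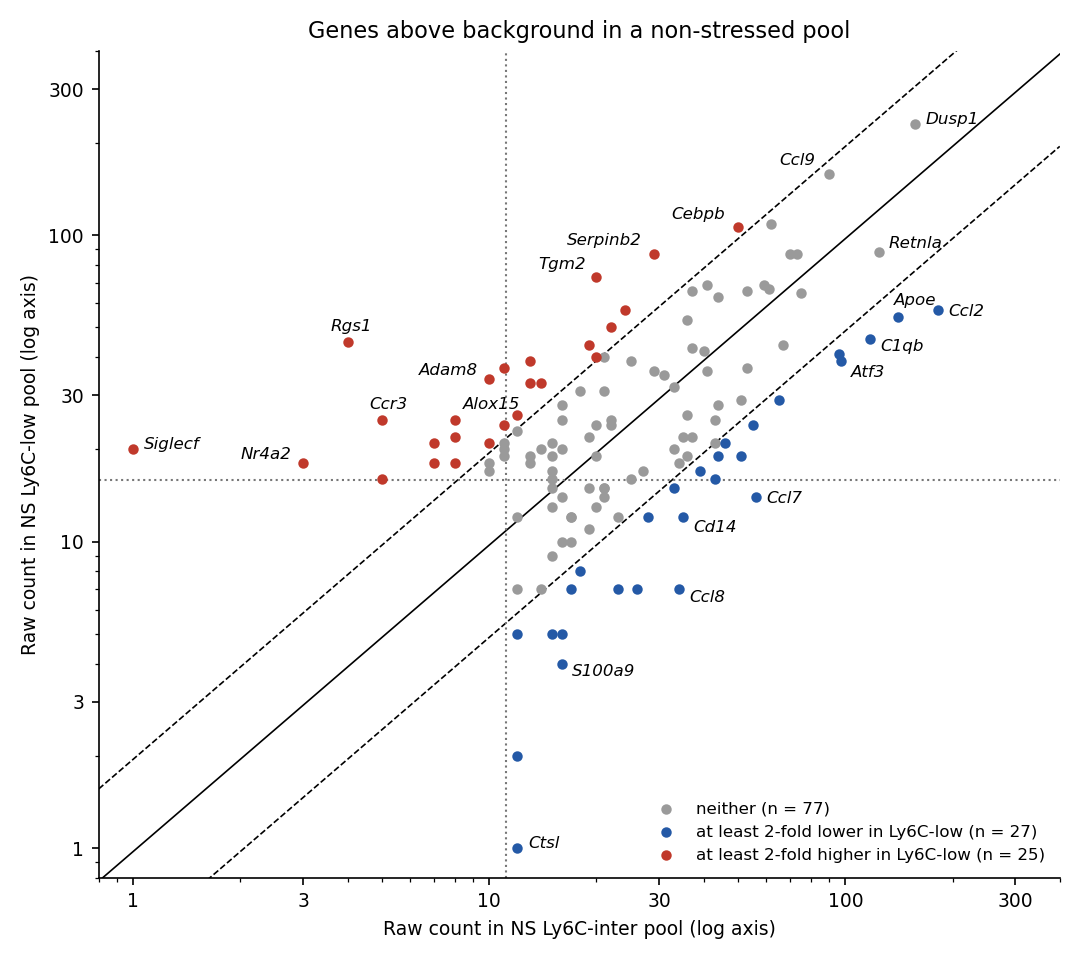
Raw counts of the 129 kept genes in the NS Ly6C-inter pool (x, log axis) and the NS Ly6C-low pool (y, log axis), 1 point per gene, with equal levels after scaling as the solid line, 2-fold differences as dashed lines and the negative control limits of 11.2 and 15.9 counts as dotted lines. The 25 genes at least 2-fold higher in Ly6C-low cells (red) include Siglecf, Rgs1 and Ccr3 near the left edge, and the 27 lower genes (blue) include Ccl2, Apoe and C1qb at the upper right.

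Receptors found on eosinophils were among the higher genes. Siglecf, a sialic acid-binding lectin found on eosinophils and on some tissue macrophages, had 20 counts in Ly6C-low cells and 1 in Ly6C-inter cells, a log2 ratio of 4.36 (1.71 to 9.73). Ccr3, the eotaxin receptor, had 25 and 5 counts (2.36, 0.95 to 4.10). The antibody mix that removed other lineages is described as taking out granulocytes, with Ly6G as the granulocyte antibody and none to Siglec-F, and both pools were gated as CD64+. Of the whole eosinophil list of 6 genes 5 were measured, and their summed count was 53 in Ly6C-low and 14 in Ly6C-inter cells and between 7 and 19 in the other 6 pools. Il5ra, of the interleukin-5 receptor, had 6 and 2 counts, below the limits. Epx (eosinophil peroxidase) had 1 count in both pools and Prg2 (major basic protein) had 1 and 5, also below the limits. The part of other cells in the differences between the pools was not tested, and in such bulk samples fewer cells of a type and less RNA per cell cannot be told apart. For the other lineages the summed counts in Ly6C-low and Ly6C-inter cells were 14 and 32 over 8 neutrophil genes, 16 and 15 over 7 mast cell and basophil genes, 14 and 18 over 7 dendritic cell genes, 7 and 5 over 3 NK cell genes, 1 and 3 for the B cell gene Ms4a1, 1 and 2 for the epithelial gene Cdh1, 8 and 16 over 5 stromal genes, and 4 and 8 over 3 endothelial genes. No T cell marker of the list was measured. In these lists only S100a9 was kept, a calcium-binding protein abundant in neutrophils and monocytes. It was lower in Ly6C-low cells, with 4 and 16 counts (-1.96, -4.0 to -0.33).

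Further higher genes encode enzymes, an enzyme inhibitor and a scavenger receptor. Serpinb2, an inhibitor of plasminogen activators, had 87 counts in Ly6C-low and 29 in Ly6C-inter cells (log2 ratio 1.62, 1.0 to 2.28). Tgm2, a transglutaminase that crosslinks proteins, had 73 and 20 counts (1.90, 1.17 to 2.70). Alox15, a lipoxygenase of eosinophils and some resident macrophages, had 25 and 8 counts (1.68, 0.49 to 3.04). All 3 were above the limit in Ly6C-low cells, and Alox15 was below it in Ly6C-inter cells. Olr1, a scavenger receptor for oxidized LDL, had 39 and 13 counts (1.62, 0.69 to 2.65), and Adam8, a membrane metalloprotease of leukocytes, had 34 and 10 (1.80, 0.75 to 2.98). Ptgs2, the inducible cyclooxygenase, had 33 and 13 counts (1.38, 0.42 to 2.43). Plau (urokinase), whose activity Serpinb2 restrains, stood the other way with 5 and 15 counts (-1.55, -3.36 to -0.02), its count in Ly6C-low cells being below the limit.

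Several regulators of signalling belonged to the higher group. Rgs1, which shortens signals from chemokine receptors, had 45 counts in Ly6C-low and 4 in Ly6C-inter cells (log2 ratio 3.53, 2.07 to 5.47). Cytip, a regulator of leukocyte adhesion, had 57 and 24 (1.28, 0.57 to 2.04). Of 15 kept genes of an activation response list, 5 were at least 2-fold higher and 2 were lower, beside 19.4% and 20.9% of all 129 genes, with a list median of 0.26 beside 0.11. Nr4a2 and Nfkbia were kept only through Ly6C-low cells, where they are high. Among the 11 members above the limit in both pools 3 were higher and 2 lower, beside 11 and 12 of all 77 such genes. The higher members were the nuclear receptor Nr4a2 (18 and 3 counts, 2.62, 0.85 to 5.03), Ptgs2, Cebpb, a transcription factor of myeloid cells (106 and 50, 1.12, 0.62 to 1.64), and the NF-kB inhibitors Tnfaip3 (50 and 22, 1.22, 0.47 to 2.02) and Nfkbia (21 and 7, 1.62, 0.33 to 3.10). The lower members were the transcription factors Atf3 (39 and 97 counts, -1.28, -1.85 to -0.73) and Klf4 (21 and 46, -1.09, -1.91 to -0.32). Dusp1, a phosphatase that turns off MAP kinases, had 231 and 157 counts, and its log2 ratio of 0.59 (0.30 to 0.90) was short of the threshold. The early response genes did not stand together on 1 side, since Jun had 21 and 43 counts and Fosb 69 and 59. The growth factor Vegfa (26 and 12 counts), the cell cycle inhibitor Cdkn1a (24 and 11), the transcriptional regulator Crem (22 and 8), the inhibitory G protein subunit Gnai3 (16 and 5), the SLAM family receptor Cd84 (18 and 7), the lysosomal enzyme Man2b1 (40 and 20), S100a4 (33 and 14) and Ptprc also had intervals above 0. Of the 25 higher genes, the intervals of the cytokine Osm (21 and 10 counts) and of Ctnnb1 (18 and 8) included 0.

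**Figure D2:**
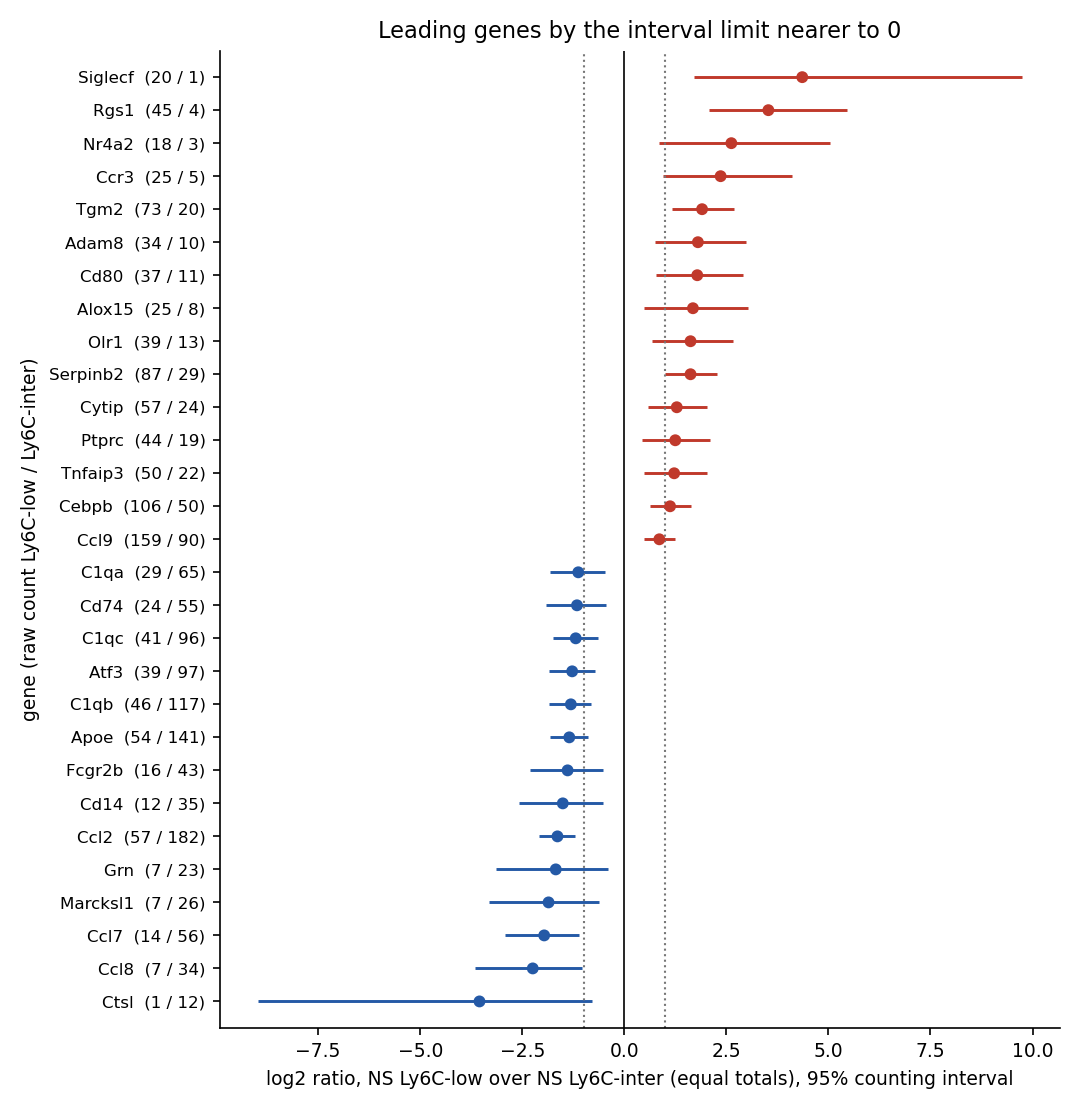
Log2 ratio of NS Ly6C-low over NS Ly6C-inter cells (x, points, with 95% counting intervals as bars) for 15 higher and 14 lower genes, those whose interval limit nearer to 0 was most extreme, with raw counts beside each name and dotted lines at 2-fold. The intervals of Siglecf and Ctsl, with 1 count in a pool, are the widest, and those of Ccl2 (-2.09 to -1.20) and Ccl9 (0.48 to 1.25) are narrow.

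Macrophage identity genes stood mostly on the lower side. Of the 11 kept members of that list, 5 were at least 2-fold lower in Ly6C-low cells and none was at least 2-fold higher, beside 20.9% and 19.4% of all 129 genes. These 5 include the C1q chains and were among the 9 members above the limit in both pools. Of all 77 genes above both limits 12 were lower. The list median was -0.88 beside 0.11 for all 129 genes. Apoe, which carries lipids, had 54 counts in Ly6C-low and 141 in Ly6C-inter cells (log2 ratio -1.35, -1.83 to -0.89). Csf1r, the receptor for the growth factor that macrophages depend on, was at -0.88 (-1.79 to -0.02), and Mrc1 (-0.75) and Cd163 (-0.63) were also below 0, with less than a 2-fold difference. Adgre1 stood apart from its list. It had 66 counts in Ly6C-low and 37 in Ly6C-inter cells, 1.83 times as many after scaling (1.21 to 2.82). Its log2 ratio, 0.87 (0.27 to 1.49), was the only one of the 11 above 0. Other genes of receptors and lysosomal proteins were lower too, though the lysosomal Man2b1 was higher. Fcgr2b, the inhibitory IgG receptor, had 16 and 43 counts (-1.39, -2.32 to -0.53), Cd14, the co-receptor for lipopolysaccharide, 12 and 35 (-1.51, -2.59 to -0.53), and Grn (progranulin) 7 and 23 (-1.68, -3.14 to -0.41). The protease Ctsl had 1 and 12 counts and Pros1, which bridges dying cells to phagocytes, 2 and 12, and both were kept through Ly6C-inter counts just above the limit. Among the 27 lower genes the intervals of C4a, of the lysosomal lipase Lipa (8 and 18 counts) and of the kinase Mapk14 (5 and 12) included 0.

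Complement genes had 5 of 6 kept members at least 2-fold lower, beside 20.9% of all 129 genes. C5ar1 and C4a were kept only through Ly6C-inter cells, where they are high. Of the 4 members above the limit in both pools 3 were lower, beside 12 of all 77 such genes. The 3 chains of C1q, which starts the classical pathway, were lower by similar amounts. C1qa had 29 counts in Ly6C-low and 65 in Ly6C-inter cells (log2 ratio -1.13), C1qb 46 and 117 (-1.31) and C1qc 41 and 96 (-1.19), each with an interval below 0. These 3 genes are also in the macrophage list, so the 2 lists are not separate observations. C5ar1, the receptor for C5a, had 15 and 33 counts (-1.10, -2.09 to -0.18), and C4a had 7 and 17, with an interval that included 0. C3ar1, the C3a receptor, was level, with 42 and 40 counts (0.11, -0.55 to 0.77). The list median was -1.16.

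CC chemokines went in 2 directions. Of 19 measured, 8 were kept, of which 5 were at least 2-fold lower in Ly6C-low cells and none at least 2-fold higher, beside 20.9% and 19.4% of all 129 genes. Ccl7, Ccl8 and Ccl24 were kept only through Ly6C-inter cells, where they are high. Of the 5 members above the limit in both pools 2 were lower, beside 12 of all 77 such genes. Ccl2, which attracts monocytes through CCR2, had 57 counts in Ly6C-low and 182 in Ly6C-inter cells, 3.11 times as many in the latter after scaling (2.30 to 4.27), a log2 ratio of -1.64 (-2.09 to -1.20). Ccl7 had 14 and 56 counts (-1.96, -2.92 to -1.10), Ccl12 17 and 39 (-1.16, -2.08 to -0.31) and Ccl8 7 and 34 (-2.24, -3.66 to -1.05). These CCR2 ligands and their relatives were thus lower together. Ccl24, an eotaxin, was also lower, with 12 and 28 counts (-1.19, -2.30 to -0.16). Ccl9 and Ccl6 stood on the other side, below the 2-fold threshold but with intervals above 0. Ccl9 had 159 and 90 counts (0.86, 0.48 to 1.25) and Ccl6 had 40 and 21 (0.97, 0.17 to 1.80), while Ccl3 was level at 17 and 15. The list median of -1.17 became 0.22 over the 5 members above the limit in both pools, because Ccl7, Ccl8 and Ccl24 were not above it in Ly6C-low cells. In the RefSeq annotation all but Ccl24 lie on chromosome 11 in 2 runs of neighbouring genes. Ccl2, Ccl7, Ccl11, Ccl12, Ccl8 and Ccl1 follow each other in one run, and Ccl5, Ccl9, Ccl6, Ccl3 and Ccl4 in the other. All 4 kept genes of the first run were lower, and of the second run 2 were higher by their intervals. Ccl7 and Ccl8 of the first run were kept only through Ly6C-inter cells, and for such genes the filter favours that direction. Ccl11, Ccl1 and Ccl5 had 1 count in each pool and Ccl4 had 3 in each.

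The 120 bases before the annotated start of 4 of these genes are shown here, as 2 neighbours from each run that stood on opposite sides (RefSeq, GRCm38.p6, 5′ to 3′ on the strand of the gene). Capitals mark TATAAA and TGANTCA (where N is any base), each searched on both strands. TATAAA was found in 6.34% of the 32851 windows of this length in the table and TGANTCA in 3.41%.
Ccl12 (chr11:82101725-82101844, plus strand, lower in Ly6C-low): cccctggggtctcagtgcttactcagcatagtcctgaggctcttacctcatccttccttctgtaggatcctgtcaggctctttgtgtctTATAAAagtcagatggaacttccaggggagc
Ccl8 (chr11:82115065-82115184, plus strand, lower in Ly6C-low): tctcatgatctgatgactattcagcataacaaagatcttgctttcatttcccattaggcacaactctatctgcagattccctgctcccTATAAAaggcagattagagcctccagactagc
Ccl9 (chr11:83578637-83578756, minus strand, higher in Ly6C-low): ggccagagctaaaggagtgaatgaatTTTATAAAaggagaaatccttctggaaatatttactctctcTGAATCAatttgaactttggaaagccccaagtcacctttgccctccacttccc
Ccl6 (chr11:83593088-83593207, minus strand, higher in Ly6C-low): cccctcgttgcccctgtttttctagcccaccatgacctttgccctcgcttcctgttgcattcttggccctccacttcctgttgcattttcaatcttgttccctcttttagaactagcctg
In Ccl12 and Ccl8 a TATAAA begins 31 and 32 bases before the start. In Ccl9 it begins 92 bases before it, overlapping a second match on the other strand, and a TGANTCA begins 53 bases before it. These letters are not in the window of Ccl6. The matches describe the sequence and were not related to the counts.

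**Figure D3:**
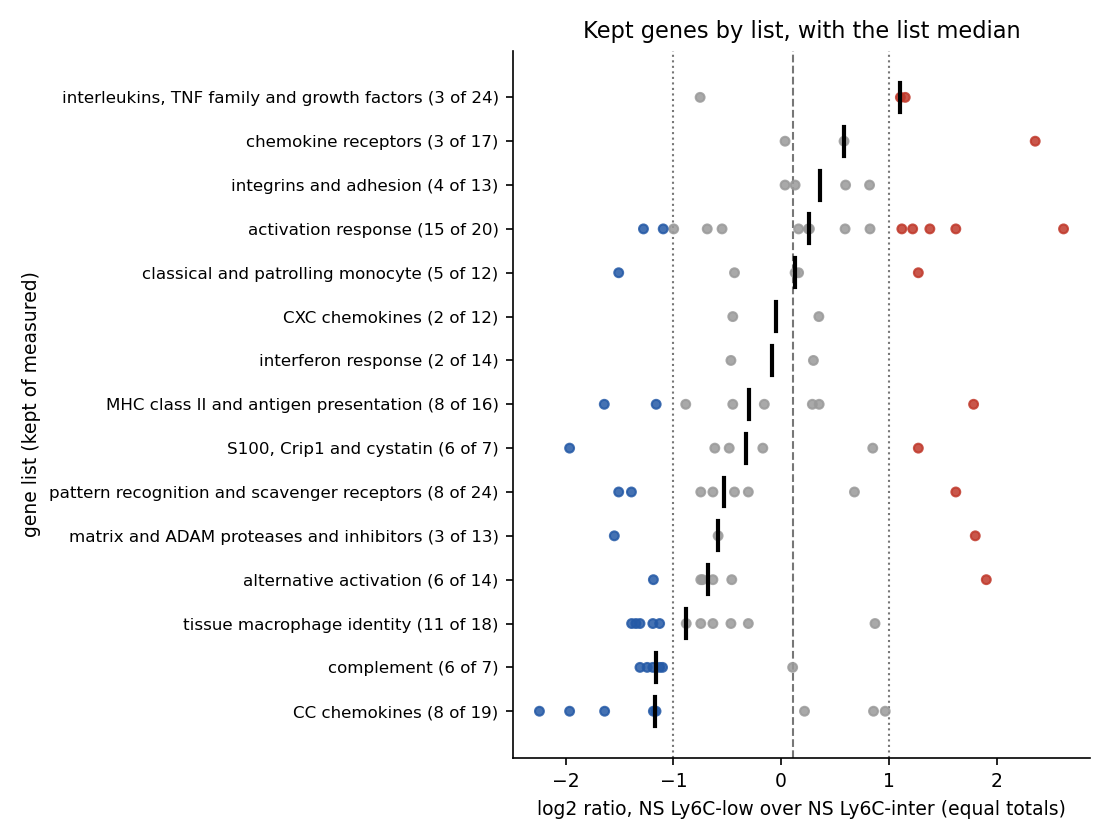
Log2 ratio of NS Ly6C-low over NS Ly6C-inter cells (x) for the kept genes of each list with 2 or more of them (y, kept of measured), 1 point per gene, red and blue past 2-fold, with the list median as a black bar and the median of all 129 genes, 0.11, as a dashed line. The CC chemokine, complement and macrophage medians (-1.17, -1.16 and -0.88) stand farthest to the left.

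Antigen presentation genes were divided. The costimulatory ligands of CD28 stood on opposite sides, Cd80 with 37 counts in Ly6C-low and 11 in Ly6C-inter cells (log2 ratio 1.79, 0.79 to 2.91) and Cd86 with 5 and 16 (-1.64, -3.44 to -0.13). Cd74, the invariant chain of MHC class II, had 24 and 55 counts (-1.16, -1.92 to -0.44), far below its 5212 counts in NS MHCII+ cells. The class I genes H2-D1 (87 and 73 counts) and H2-K1 (66 and 53) had intervals that included 0, and the median of the 8 kept members was -0.30. The counts of the small lists that follow stand beside 19.4% higher and 20.9% lower among all 129 genes. In the alternative activation list Tgm2 was higher and Ccl24 lower by at least 2-fold, and Retnla, a secreted protein induced by type 2 cytokines, had 88 and 124 counts (-0.46, -0.87 to -0.05). Among pattern recognition and scavenger receptors, 1 of 8 kept genes was at least 2-fold higher (Olr1) and 2 were lower (Cd14 and Fcgr2b). In the S100, Crip1 and cystatin list S100a4 was higher and S100a9 lower, with a median of -0.33 over 6 kept genes, and S100a11 had 109 and 62 counts (0.85, 0.39 to 1.32). Of 5 kept monocyte genes 1 was higher (S100a4) and 1 lower (Cd14), with a median of 0.13. Among the 3 kept proteases Adam8 was higher, Plau lower and Mmp9 neither (13 and 20 counts). Of 3 kept chemokine receptors Ccr3 was higher, while Cxcr4 had 19 and 13 counts and Ccr1 12 in each pool. Of 24 interleukin, TNF family and growth factor genes 3 were kept, Osm and Vegfa past the threshold and Tnf with 11 and 19 counts (-0.75, -1.97 to 0.39). None of the 4 kept integrin genes, of the 2 CXC chemokines (Cxcl2, with 87 and 70 counts, and Pf4) or of the 2 interferon list genes passed the threshold. Of 13 genes of the IL-1 family and inflammasome list only Il1b was kept, with 39 and 25 counts (0.68, -0.08 to 1.46).

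In NS MHCII+ cells, the pool rich in MHC class II transcripts, 121 of the 129 kept genes (93.8%) exceeded the background limit. Of the 27 lower genes 26 did so (96.3%), which is near that share, and of the 25 higher genes 18 did (72.0%). The 7 higher genes that did not were Siglecf, Ccr3, Alox15, Tgm2, Serpinb2, Olr1 and Vegfa. The counts of these 7 genes, grouped after their values were seen, summed to 295 in NS Ly6C-low, 88 in NS Ly6C-inter and 43 in NS MHCII+ cells, which is 509, 148 and 10.8 per 10000 gene counts. The choice of the genes makes the Ly6C-low sum the highest of these and the MHCII+ sum small. In NS monocytes the counts of the 7 genes summed to 29, 106 per 10000, in a pool with only 2728 counts and 24 genes above its limit. The ratio of the summed counts of the 25 higher genes to those of the 27 lower genes does not depend on scaling, but background counts enter both sums. It was 1.89 in NS Ly6C-low and 0.25 in NS Ly6C-inter cells, values that the choice of the genes fixes, and 0.17 in NS MHCII+ cells. Without Cd74, left out after its 5212 counts in the MHCII+ pool were seen, these were 1.99, 0.26 and 0.39. The NS monocyte pool had a ratio of 1.18, and of 1.36 without Cd74.

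The DS5 pools allowed the same contrast in cells that the NS comparison did not use. The DS5 Ly6C-inter pool stood apart, since Emp1, S100a11, S100a10 and Ly6c1, with 1436, 891, 696 and 583 counts, made up 25.4% of its total, against 2.93% in NS Ly6C-inter cells. Its total of 14201 counts was 3.50 times that of the DS5 Ly6C-low pool (4056). Its marker sums included 82 counts over the 8 neutrophil genes, 55 of them from S100a9, and 16 for the epithelial gene Cdh1. Cdh1 and every neutrophil gene but S100a9 were below the limit of that pool, 23.0 counts. The part of all these genes in the DS5 ratios was not tested. Scaling to equal totals put 49 of the 129 genes (38%) at least 2-fold higher and 11 (8.53%) at least 2-fold lower in DS5 Ly6C-low cells, and the median of the 129 was 0.78, so DS5 ratios are best read against that median. Background moves the same way, since the negative control probes summed to 47 counts in DS5 Ly6C-low and 67 in DS5 Ly6C-inter cells, a scaled log2 ratio of 1.30, above that median and the 2-fold threshold. The part of background in the ratios of genes below both limits was not tested.

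Of the 25 genes higher in NS Ly6C-low cells, 11 were above the limit in a DS5 pool. Of these 11 genes 9 were at least 2-fold higher in DS5 Ly6C-low cells after scaling, beside 26 of the 88 kept genes above a DS5 limit (29.5%), and 10 were above the median of 0.78. With limits of 12.5 and 23.0 counts and this scaling, a gene above the limit in DS5 Ly6C-low cells only is always at least 2-fold higher. All of the 11 but Cebpb (26 and 52 counts, 0.81) and Ctnnb1 (9 and 35, -0.15) were of that kind. The filter thus set the count of 9, and whether the NS difference recurs cannot be read from it. Over all 25, the detected and the undetected, 18 were at least 2-fold higher and 19 above the median. Without scaling, the raw count was the larger one in DS5 Ly6C-low cells for 11 of the 25, against 19 of all 129 genes (14.7%) and 1 of the 27 lower genes. That pool had 3.50 times fewer counts in all. Siglecf, Ccr3, Rgs1, Crem, Olr1 and Adam8 are among these genes but were below both DS5 limits. Among the genes above a DS5 limit the raw count was larger for 5 of the 11, against 9 of the 88. Most of the 11 detected genes passed in DS5 Ly6C-low cells only, and for such genes the filter favours that direction. Whether the NS difference recurs cannot be read from the raw counts either. Tgm2 had 25 counts in DS5 Ly6C-low and 10 in DS5 Ly6C-inter cells (3.13, 2.02 to 4.35), and Serpinb2 had 22 and 11 (2.81, 1.70 to 4.0). Cd80 (17 and 8 counts, 2.90) and Adgre1 (30 and 26, 2.01) had intervals above 0 too. Siglecf had 7 and 2 counts, Ccr3 5 and 2, Alox15 9 and 13, Olr1 11 and 9 and Adam8 11 and 5, all below the limits of 12.5 and 23.0 in those pools. Nr4a2, Cd84, Gnai3 and Ctnnb1 were among the 6 higher genes at or below the median. With the median of the 129 genes set to 0, a scaling chosen after the data had been seen, 12 of the 25 were at least 2-fold higher in DS5 and their median log2 ratio was 0.92.

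Genes lower in NS Ly6C-low cells gave a less clear picture. Below the DS5 median were 20 of the 27, but after scaling to equal totals only Grn and S100a9 were at least 2-fold lower, and the log2 ratio of 19 was above 0. Their median log2 ratio in DS5 was 0.25 with equal totals, -1.56 without scaling and -0.53 with the median of the 129 genes set to 0, so that its sign rests on the scaling. Apoe had 60 counts in DS5 Ly6C-low and 187 in DS5 Ly6C-inter cells, Ccl2 58 and 152, and C1qb 27 and 100, which gave log2 ratios of 0.17, 0.42 and -0.08 with equal totals, each with an interval that included 0. Ccl7 (16 and 22 counts, 1.35, 0.32 to 2.34), Fcgr2b (34 and 39, 1.61, 0.90 to 2.31) and Cd14 (17 and 27, 1.14, 0.17 to 2.07) stood above 0 in DS5, opposite to NS, and were also above the median of the 129 genes. The ratio of the summed 25 higher to the summed 27 lower genes was 0.65 in DS5 Ly6C-low and 0.26 in DS5 Ly6C-inter cells, a 2.44-fold difference, against a 7.52-fold one in NS that the choice of genes had set. Leaving out Siglecf and Ccr3 gave 0.62 and 0.26 in DS5. With all of these genes, the ratio was 1.18 in NS and 1.14 in DS5 monocytes, pools of only 2728 and 3929 counts. The part of depth and background in these ratios was not tested. Across the 129 genes the NS and DS5 log2 ratios correlated at Pearson's r = 0.43 and Spearman's rho = 0.43. This correlation is across genes of the same 4 pools, which are not independent replicates, and the 2 contrasts share no pool.

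**Figure D4:**
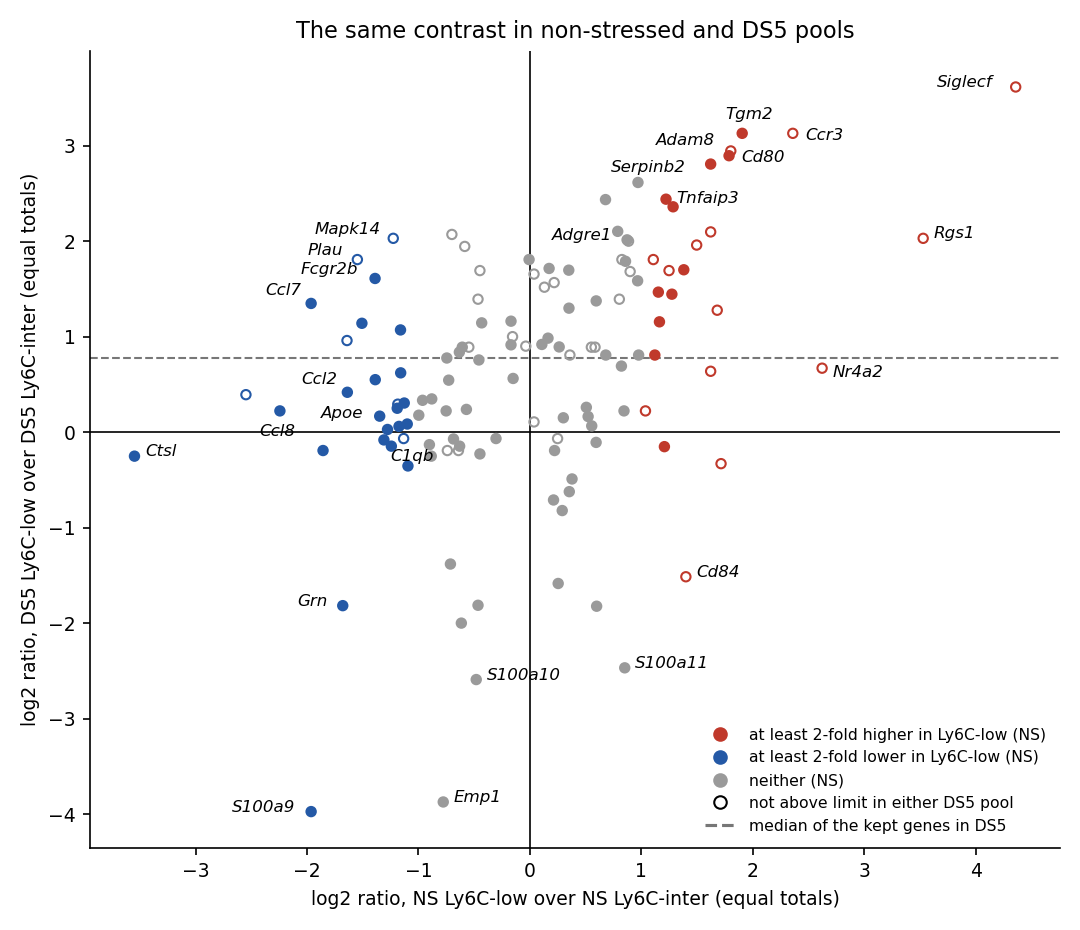
Log2 ratio of Ly6C-low over Ly6C-inter cells in NS (x) and in DS5 (y) for the 129 kept genes, coloured by their NS difference, with open points for genes above the limit in neither DS5 pool and the DS5 median of 0.78 as a dashed line. Of the 25 genes higher in NS (red), 19 lie above the dashed line, 10 of them as filled points, and of the 27 lower genes (blue), 20 lie below it. Genes above the limit in DS5 Ly6C-low cells only lie above the line through the filter.

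**Figure D5:**
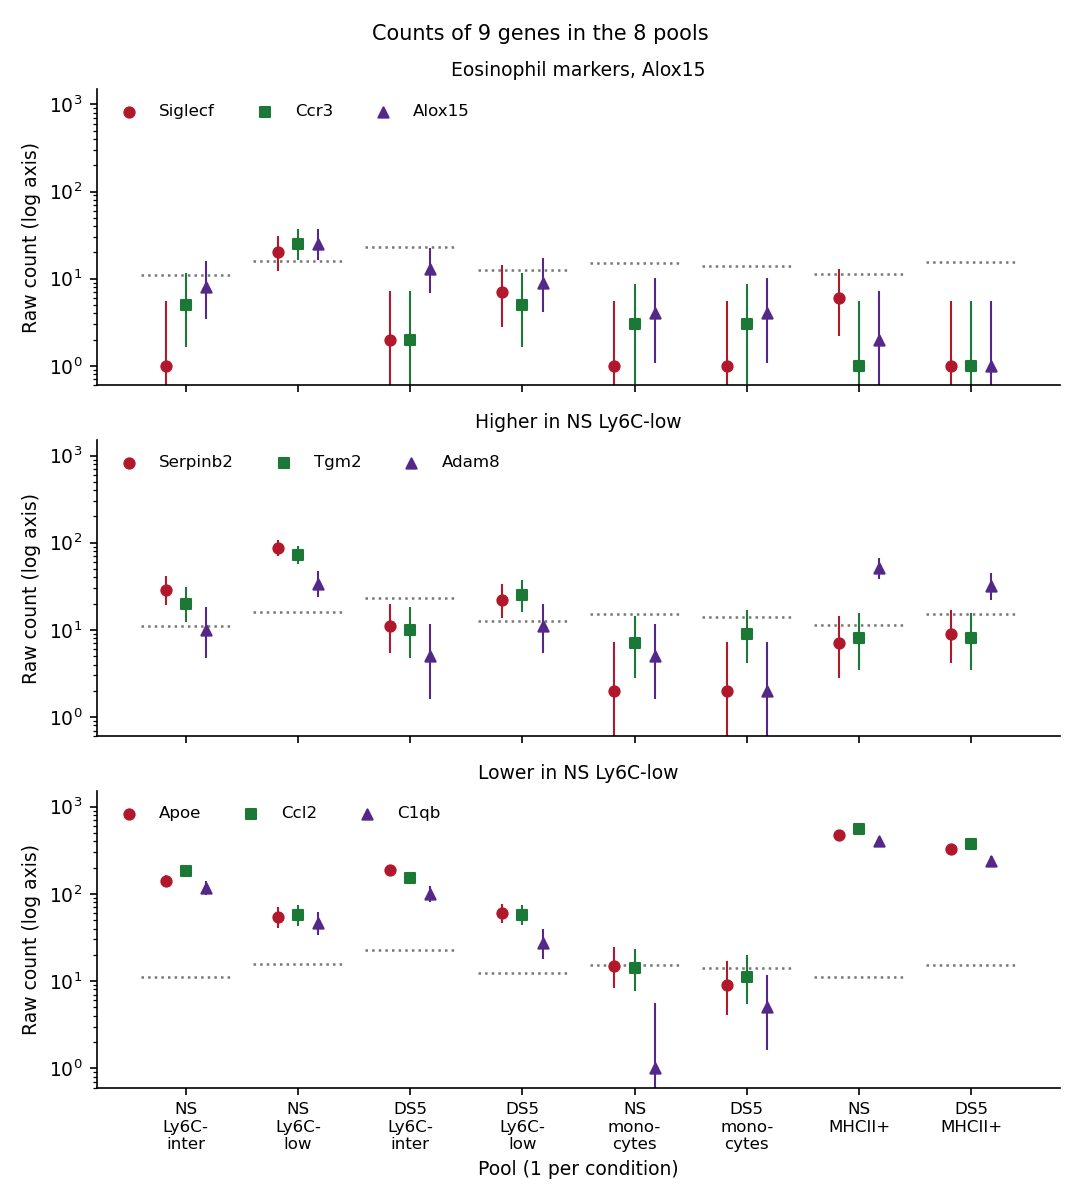
Raw counts (y, log axis) of 9 genes in each of the 8 pools (x), with exact Poisson 95% intervals as bars, which are cut at the lower edge of the panels, and the negative control limit of each pool as a dotted line. Siglecf, Ccr3 and Alox15 exceed the limit only in the NS Ly6C-low pool, while Apoe, Ccl2 and C1qb have their highest counts in the deeper MHCII+ pools.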

How the data were processed

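CD11b+ cells of the conjunctiva were sorted into 4 populations from NS and DS5 mice, 1 pool of 20 mice each. Total RNA was hybridized to an nCounter myeloid panel and the barcodes were scanned. What the authors deposited are counts for every probe without normalization, all whole numbers of at least 1. They used nSolver for quality control and analysis, with the method of normalization not given in the sources used here. Of the 754 gene names 744 matched a RefSeq symbol and 9 a synonym.

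Counts of the 2 NS pools were scaled to equal totals over the genes, and the log2 ratio was computed for genes whose count passed the negative control mean + 2 SD in at least 1 pool. A log2 ratio of 1 was the threshold, since the paper states thresholds only for other pairs of populations and for stress. Pools were grouped by their titles. No p-values were computed, because each population had 1 pool. The interval code was tested on simulated data.

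Named were Adgre1, Apoe, Ccl2 and Adam8, transcripts of the sort, the 15 genes per direction ranked by the interval limit closer to 0, the 10 with the largest summed counts and kept list members past the threshold. Other names were added after values had been seen, and 1 gene that the rule names is not reported here. The comparison, the 16 gene lists and the marker lists were chosen with earlier results of these data known. Alternatives were other scalings, background treatments, filters and thresholds. Scripts ran in Python 3.11.15 with scipy 1.17.1 for the intervals, pandas 2.3.3, numpy 2.4.6 and, for plots, matplotlib 3.10.9.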

Additional observations from a re-analysis of the deposited data

Results flagged for a closer look

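For 7 genes the interval of the log2 ratio of Ly6C-low over Ly6C-inter cells lay on opposite sides of 0 in NS and in DS5. The difference between the 2 ratios, DS5 minus NS on the log2 scale, was 3.31 for Ccl7, 3.36 for Plau, 2.65 for Cd14, 3.0 for Fcgr2b, 2.23 for Ccl12 and 1.21 for Retnla, all lower in NS and higher in DS5. S100a11 went the other way, with a difference of -3.32, from 109 and 62 counts in NS and 46 and 891 in DS5. These differences were not tested, as each rests on 4 pools without replicates and on the scaling of the DS5 Ly6C-inter pool. With the median of the 129 genes set to 0 in DS5, the DS5 log2 ratio was 0.57 for Ccl7, 1.03 for Plau, 0.36 for Cd14, 0.83 for Fcgr2b, 0.29 for Ccl12, -0.02 for Retnla and -3.24 for S100a11. Plau had 9 counts in each DS5 pool, below the limits of 12.5 and 23.0, so its DS5 ratio comes from the scaling alone under both settings.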

How the results depend on the processing

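The 25 higher and 27 lower genes of the NS comparison became 11 and 12 among genes above the limit in both pools, 13 and 16 with a count of at least 30 in a pool, 146 and 119 without a filter, 12 and 11 at a log2 ratio of 1.5, and 4 and 3 at a log2 ratio of 2. With every count raised to the limit 6 genes were higher and 27 lower, so only the higher count fell, and Ctsl turned from -3.55 to 0.0586. Intervals above 0 went from 29 to 17 among genes above the limit in both pools and to 19 with the minimum of 30 counts, and those below 0 from 31 to 19 with the first of these filters. The median of the kept genes, 0.11, was 0.28 with reference genes, -0.16 with counts raised to the limit, -0.0182 with the mean of the negative probes subtracted, -0.0374 with a limit of 3 SD and 0.25 among genes above the limit in both pools. The CC chemokine median turned from -1.17 to 0.22 in the last of these. Without scaling, with positive controls and with reference genes the 4 counts stayed within 1.5 times. Interval counts were not run with raised, subtracted or offset counts. In DS5 the median of the genes higher in NS was -0.11 without scaling and 0.92 with the median set to 0, and that of the genes lower in NS was -1.56 and -0.53.

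Of 469 values of 51 named genes under the alternatives, 458 stayed within the counting interval of the main value, 10 moved outside it and 1 (Ctsl) reversed. Ratios against background counts of 1 to 5, as for Siglecf, Rgs1, Nr4a2 and Ccr3, are limited most by depth, and with counts raised to the limit they were 0.50, 1.67, 0.35 and 0.82. No paired analysis was possible because each population had 1 pool per condition, so the NS pools share 1 replicate number only.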
